A study of Mus musculus with 7 samples.

Results

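Interferon-stimulated genes are the transcripts that cells raise when interferon reaches them. The set described here holds 37 such genes, taken by gene symbol from a list chosen with earlier results of these data known. All 37 were among the 24421 gene symbols of the files. They were measured by RNA sequencing in whole cerebellum of C57BL/6 mice. The knockout group holds 4 libraries with the genotype En1-Cre; Cicflox/flox and the control group, titled Wildtype, holds 3 with the genotype Cicflox/+ and no Cre named, so every library comes from mice with at least 1 floxed Cic allele. The En1 locus is active in the embryonic mid-hindbrain region, and En1-Cre recombines there and in the progeny of those cells. With Cre named for the knockouts only, Cre itself and Cic deletion cannot be told apart. Neither age nor sex is given, and the labels leave unsaid whether every library had its own mouse, so the p-values measure the spread between these libraries, which may be technical. Cic encodes a transcriptional repressor, and the comparison asks which cerebellar transcripts differ when it is deleted.

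Interferons of type I act through the receptor made of IFNAR1 and IFNAR2, which activates the kinases JAK1 and TYK2. These phosphorylate STAT2, which with IRF9 is part of the complex that binds the interferon-stimulated response element (ISRE), a DNA element built of GAAA repeats. The genes switched on in this way encode sensors of viral nucleic acid, enzymes and binding proteins that block viral replication, and regulators that amplify or end the response. In brain, microglia, astrocytes, endothelial cells and neurons can all express them.

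Promoter sequences of the set carried the ISRE letters far more often than promoters at large. RefSeq windows of 300 bases on GRCm38.p6, running from 250 bases before to 50 after a transcription start, were found by symbol for 26 of the 37 genes. They were not found for Ifi27, Oas1b, Oas2, Mx1, Mx2, Usp18, Dhx58, Parp9, Parp14, Zbp1 and Rtp4. The ISRE letters searched, GAAA followed by any pair of bases and GAAA again, read on both strands, occurred in a window of 14 of the 26 genes (53.8%), against 466 of 12542 tested genes with a window (3.72%) and 1131 of all 32851 windows (3.44%). One 26-base stretch is printed for the gene of smallest p in each functional class that held a match, to show the shared core, together with Isg15, which was singled out after its sequence was seen because its 3 matches overlap. Each is read 5′ to 3′ on the strand that spells the repeated GAAA, with matches in capitals, and a match that runs past the end of the stretch is truncated there.
Eif2ak2 (chr17:78882537-78882562): tccgccggGAAAACGAAAcagaagag
Stat2 (chr10:128270268-128270293): agggaaagGAAACTGAAAccagggtg
Trim30a (chr7:104465212-104465237): ggaactgaGAAAAAGAAActaaagaa
Ifit3 (chr19:34583365-34583390): cagaagagGAAAGTGAAActtaccac
Oas1a (chr5:120907528-120907553): cttctcggGAAATGGAAACTGAAAat
Rsad2 (chr12:26456555-26456580): tgttttctGAAAATGAAAgttggacc
Cxcl10 (chr5:92349085-92349110): acgctttgGAAAGTGAAActtacctc
Isg15 (chr4:156200879-156200904): tgccgtagGAAAAGGAAACCGAAACA
The core lay upstream of the start in all of these but Eif2ak2, where it began 18 bases after it. Trim30a has a further window with a match just after another start. In Oas1a and Isg15 neighbouring matches shared a GAAA.

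The stretch of 250 bases before the start is printed for Cxcl10 and Oas1a, which held a match there, and for Parp12, the gene of smallest p whose window held none. Capitals again mark the ISRE letters, here on the gene's own strand.
Cxcl10 (chr5:92348890-92349139, minus strand): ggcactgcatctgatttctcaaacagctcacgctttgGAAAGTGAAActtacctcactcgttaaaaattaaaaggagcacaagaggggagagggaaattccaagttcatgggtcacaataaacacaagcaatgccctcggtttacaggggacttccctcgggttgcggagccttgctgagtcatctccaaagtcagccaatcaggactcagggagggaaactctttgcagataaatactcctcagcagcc
Oas1a (chr5:120907526-120907775, minus strand): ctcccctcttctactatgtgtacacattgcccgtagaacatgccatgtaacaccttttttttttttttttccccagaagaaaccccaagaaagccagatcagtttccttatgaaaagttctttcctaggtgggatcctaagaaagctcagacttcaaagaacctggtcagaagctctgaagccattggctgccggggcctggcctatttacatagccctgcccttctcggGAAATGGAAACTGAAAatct
Parp12 (chr6:39118350-39118599, minus strand): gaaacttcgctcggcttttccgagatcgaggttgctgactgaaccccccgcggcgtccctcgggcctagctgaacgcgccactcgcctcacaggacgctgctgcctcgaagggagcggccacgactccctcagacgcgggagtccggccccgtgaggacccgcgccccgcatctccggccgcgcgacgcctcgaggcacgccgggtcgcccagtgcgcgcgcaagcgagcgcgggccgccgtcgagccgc
The Cxcl10 match began 213 bases before the start and the first Oas1a match 20 bases before it. The letters TTCNNNGAA of the interferon gamma-activated sequence (GAS) were in 6 of the 26 genes (23.1%) and in 8.42% of tested genes. The CIC octamers TGAATGAA, TGAATGGA, TCAATGAA and TCAATGGA were in 1 of the 26 (Isg15, 3.85%) and in 3.08% of tested genes. A match is a description of letters and not of a bound site, and a window without one says only that these letters are not in it. The 14 genes with an ISRE match had a median log2 fold change of 1.04 (knockout over control), with a range from 0.37 to 2.26. The 12 without had a median of 0.65, with a range from 0.22 to 1.78, so the ranges overlapped. Among other tested genes, outside this set and a wider list of interferon-induced genes, 420 held an ISRE match. Their median log2 fold change was -0.01, and 1.67% of them were called higher, against 1.12% of the 12043 without a match.

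**Figure D1:**
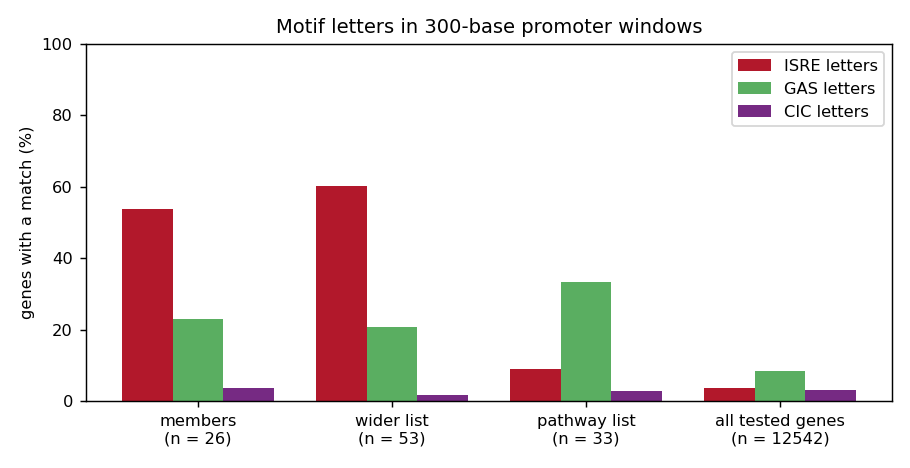
Share of genes (y axis, percent) whose 300-base promoter window holds the ISRE, GAS or CIC letters, for the members, the wider list, the pathway list and all tested genes with a window. The ISRE letters were in 53.8% of the members and 60.4% of the wider list, against 9.09% of the pathway list and 3.72% of tested genes.

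The libraries held 102653765 to 121285349 gene counts, so 3 counts correspond to 0.0245 to 0.0295 CPM (counts relative to the TMM-scaled library size), a floor that covers counting error only. Cic, which checks the labels, was at 144 to 147 CPM in libraries labelled knockout and 216 to 257 CPM in the rest, with no overlap (edgeR log2 fold change -0.66, SE 0.0622, adjusted p = 0.00256). Markers of Purkinje cells (4 genes, summed at 2948 to 4763 CPM) and granule neurons (4 genes, 2164 to 2638 CPM) were present in every library. Choroid plexus markers summed to 8440 CPM in knockout 3 and 6109 CPM in control 3 but to 42.2 to 141 CPM elsewhere. Xist was at 1556 and 1596 CPM in knockouts 1 and 2 and at 0.456 to 14.7 CPM in the others, while the Y-linked Ddx3y was at 76.5 to 97.5 CPM in knockouts 3 and 4 and controls 1 and 3 and at 0.709 to 1.31 CPM in the rest, so control 2 was low for both. Reads outside annotated genes made up 18.2% to 19.0% of entries in the knockouts, 18.6% in control 2 and 16.0% and 16.5% in controls 1 and 3.

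All 37 interferon-stimulated genes had higher fitted levels in the knockouts, with log2 fold changes from 0.22 (Ifit2) to 2.26 (Oas3) and a median of 0.97, against a median of -0.00441 over the 16905 genes tested. For comparison, 48.8% of tested genes had a positive log2 fold change. More than a 2-fold difference was found for 16 of the 37 and for 1.34% of tested genes. In 27 of the 37 all 4 knockout libraries lay above all 3 controls, as they did for 7.06% of tested genes. At an unadjusted p below 0.05, 31 of the 37 were higher, against 8.06% of tested genes. After adjustment over all genes tested, 3 rose at the threshold of 0.05 (Cxcl10, Parp12 and Xaf1), where 1.25% of tested genes did. None was called lower (0.828% of tested genes were), with 0 also at an unadjusted p below 0.05 in edgeR, DESeq2 and limma-voom. The knockouts were more spread than the controls for this set: the SD of log2 levels had a median over the set of 0.50 in the knockouts and 0.17 in the controls, whereas over all tested genes the medians were 0.11 and 0.12. In 29 of the 37 genes (78.4%) the knockouts varied more than the controls, against 48.2% of all genes. The members share their libraries and are not separate replicates of the comparison, and they were chosen with earlier results of these data known.

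**Figure D2:**
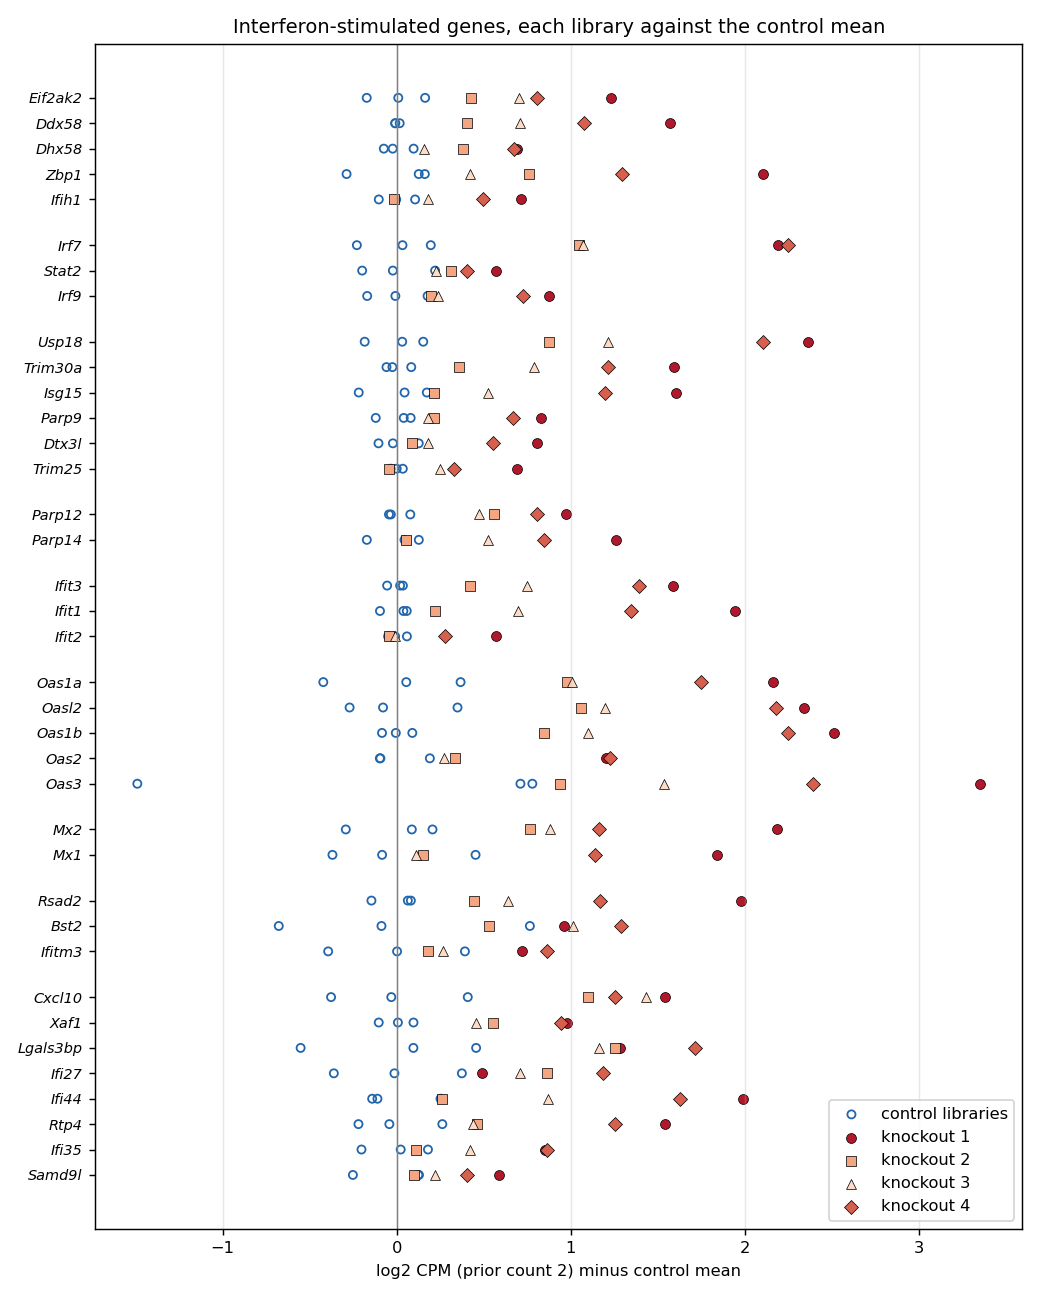
Log2 CPM (prior count of 2) of each of the 37 genes in each library minus the mean of the 3 controls (x axis), grouped by function from top to bottom (sensors, transcription factors, ubiquitin system, ADP-ribosyltransferases, IFIT, OAS, Mx, membrane-acting factors, other induced genes). Open circles are controls; knockouts 1 and 4 lie right of all controls in 37 of 37 genes, knockout 3 in 34 and knockout 2 in 27.

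How many genes were called depended on the model and the libraries. With the replicate number as a block edgeR called 10 (1.83% of all genes), namely Cxcl10, Eif2ak2, Irf7, Mx2, Oas1a, Oasl2, Parp12, Rtp4, Usp18 and Xaf1. Only a knockout carries the number 4, so knockout 4 had a block of its own. The block fit therefore drew its fold changes from the libraries numbered 1 to 3. DESeq2, without the block, called 23 (4.19%). Limma-voom called 3 (1.14%), as did edgeR with DESeq2 size factors (1.27%), with library sizes only (1.34%) and with no filter (0.956%), and a filter of 1 CPM in 3 libraries gave 5 of 34 (1.67%). Without knockout 3 there were 8 (2.94%), without knockout 2 there were 4 (0.588%), without control 2 there were 3 (2.16%), without both libraries numbered 3 there were 4 (1.52%), without knockout 1 there was 1, Parp12 (0.386%), and without knockout 4, control 1 or control 3 there were 0 in edgeR (0.469%, 0.449% and 0.457% of all genes), although 26, 29 and 24 members were higher there at an unadjusted p below 0.05. With Xist or the percent of reads outside annotated genes (the unannotated-read share) added to the model edgeR also called 0 (0.432% and 0.272% of all genes), with 27 and 22 at an unadjusted p below 0.05. The members' median log2 fold change was 0.87 and 1.07 in these fits, against 0.97. Both covariates went partly with genotype: Xist was high in knockouts only, and the share was lowest in controls 1 and 3. Calls lost with them, here and below, therefore cannot separate covariate from genotype. The direction did not depend on these choices: in 18 alternative analyses 663 of 663 fitted values were positive.

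Of 5 sensors of foreign nucleic acid, 4 kept the groups apart and had an unadjusted p below 0.05, and 0 were called by edgeR. Of all tested genes, 7.06% kept the groups apart with the knockouts higher. Higher at an unadjusted p below 0.05 were 8.06%, and 1.25% were called higher. These shares apply to each class below. Eif2ak2, the kinase PKR that stops translation on double-stranded RNA, was at 23.7, 13.6, 16.5 and 17.7 CPM in knockouts 1 to 4 and at 10.2, 8.98 and 11.3 CPM in controls 1 to 3. Every knockout lay above every control (log2 fold change 0.82, SE 0.181, adjusted p = 0.0689; 0.0343 with the replicate block). Ddx58, the RNA sensor RIG-I, was at 22.8, 10.1, 12.5 and 16.2 CPM in the knockouts and at 7.74, 7.60 and 7.61 CPM in the controls. The groups did not overlap, and the 3 controls differed by far less than the 4 knockouts (log2 fold change 1.01, SE 0.257, adjusted p = 0.107). Dhx58, the RIG-I-like protein LGP2, was at 9.42, 7.59, 6.50 and 9.30 CPM against 5.53, 6.23 and 5.73 CPM, without overlap but with knockout 3 close to control 2 (log2 fold change 0.49, SE 0.143, adjusted p = 0.139). Zbp1, a sensor of left-handed nucleic acid, was scarce, at 0.484 to 1.59 CPM against 0.289 to 0.402 CPM. Ifih1, the long double-stranded RNA sensor MDA5, was at 6.95 to 11.5 CPM against 6.54 to 7.56 CPM, and knockout 2 lay inside the control range (adjusted p = 0.331).

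The 3 transcription factors all kept the groups apart and had unadjusted p-values below 0.05, with 0 called by edgeR and log2 fold changes from 0.37 to 1.75. Irf7, which amplifies type I interferon output and is itself induced, was at 15.3, 6.89, 7.03 and 15.9 CPM in the knockouts and at 3.82, 2.84 and 3.41 CPM in the controls. Knockouts 1 and 4 stood far above the controls, with knockouts 2 and 3 between them and the controls (log2 fold change 1.75, SE 0.361, adjusted p = 0.0628; 0.0115 with the replicate block). Stat2, a subunit of the ISRE-binding complex, was at 176, 147, 139 and 157 CPM against 117, 138 and 103 CPM, so knockout 3 and control 2 nearly met (log2 fold change 0.37, SE 0.112, adjusted p = 0.155). Irf9, the DNA-binding subunit of that complex, was at 43.0, 26.9, 27.7 and 38.8 CPM against 23.4, 26.6 and 20.9 CPM. Here knockouts 2 and 3 were barely above control 2 (log2 fold change 0.53, SE 0.184, adjusted p = 0.216). Irf7 shares 45 exonic bases with Phrf1 on the opposite strand and Irf9 123 with Rnf31 on its own strand; Phrf1 and Rnf31 had log2 fold changes of -0.04 and 0.11.

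Of 6 genes of the ubiquitin system, 4 kept the groups apart, 5 had an unadjusted p below 0.05 and 0 were called by edgeR. Usp18, the protease that removes ISG15 and dampens receptor signalling, was at 11.4, 4.03, 5.11 and 9.48 CPM in the knockouts and at 2.44, 2.24 and 1.93 CPM in the controls. All knockouts were above all controls (log2 fold change 1.77, SE 0.373, adjusted p = 0.064; 0.0454 with the replicate block). Trim30a, a mouse TRIM protein with close relatives that can share reads, was at 11.9, 5.05, 6.83 and 9.17 CPM against 4.18, 3.78 and 3.87 CPM (log2 fold change 1.06, SE 0.269, adjusted p = 0.0993). Isg15, the ubiquitin-like modifier itself, was at 6.95, 2.64, 3.28 and 5.25 CPM against 2.35, 2.57 and 1.95 CPM. Knockout 2 exceeded control 2 by less than the controls differed among themselves (log2 fold change 0.98, SE 0.328, adjusted p = 0.196). Parp9 and Dtx3l, which encode partners in one ubiquitin ligase and overlap head to head over 458 exonic bases on chromosome 16, had log2 fold changes of 0.50 and 0.44 (adjusted p = 0.203 and 0.271), and their reads near the shared start cannot be assigned without strand. Trim25, the ligase that activates RIG-I, was at 8.15 to 13.5 CPM against 8.19 to 8.59 CPM and overlapped.

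Parp12, an ADP-ribosyltransferase that restrains viral translation, was 1 of the 3 genes that rose. It lies on chromosome 6 at 39086410 to 39118349 (GENCODE M21, GRCm38). Its level was 45.7, 34.4, 32.4 and 40.8 CPM in knockouts 1 to 4 and 22.6, 24.6 and 22.8 CPM in controls 1 to 3, with a wide gap between the groups (1.64-fold, log2 fold change 0.72, SE 0.118, adjusted p = 0.0252). The call was lost without knockout 4 (adjusted p = 0.0855), control 1 (0.115) or control 3 (0.117), and with Xist (0.0876) or the unannotated-read share (0.275) as a covariate. Parp14, a larger relative, was at 13.6, 5.89, 8.16 and 10.2 CPM against 6.19, 5.85 and 5.03 CPM, and knockout 2 lay inside the control range (adjusted p = 0.219).

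The IFIT genes, whose products bind foreign RNA ends and block its translation, lie together on chromosome 19. Of the 3, 2 kept the groups apart and 0 were called by edgeR, with 2 at an unadjusted p below 0.05. Ifit3 was at 87.3, 39.0, 48.8 and 76.4 CPM in the knockouts and at 29.4, 29.8 and 28.0 CPM in the controls (knockout over control log2 fold change 1.11, SE 0.285, adjusted p = 0.124). Ifit1 was at 33.6, 10.1, 14.2 and 22.2 CPM against 8.95, 9.07 and 8.15 CPM (log2 fold change 1.20, SE 0.402, adjusted p = 0.216). Both kept the groups apart, with tight controls and a spread of more than 2-fold among knockouts. Ifit2, although a neighbour, was at 14.4, 9.40, 9.63 and 11.8 CPM against 9.38, 9.65 and 10.1 CPM. Its knockouts 2 and 3 sat among the controls, and its log2 fold change of 0.22 (SE 0.149, adjusted p = 0.52) was the smallest of the 37. The differences between these 3 genes were not tested against each other. Reads can be shared between Ifit3 and its near copy Ifit3b, which stood at 21.7 to 41.0 CPM against 13.9 to 15.1 CPM.

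The OAS family, enzymes that make 2′-5′ oligoadenylate to activate RNase L, lies mostly in a cluster on chromosome 5, and its 5 listed genes had a median log2 fold change of 1.78. All 5 kept the groups apart and had an unadjusted p below 0.05, and 0 were called by edgeR. Oasl2, an OAS-like gene, was at 32.6, 13.4, 14.8 and 29.2 CPM in the knockouts and at 8.20, 6.09 and 5.33 CPM in controls (log2 fold change 1.78, SE 0.381, adjusted p = 0.0767; 0.00927 with the replicate block). Oas1b, annotated as a polymorphic pseudogene, was at 6.78, 2.12, 2.53 and 5.65 CPM against 1.25, 1.17 and 1.10 CPM (log2 fold change 1.86, SE 0.43, adjusted p = 0.081). Oas1a was at 4.03, 1.76, 1.80 and 3.02 CPM against 0.922, 1.15 and 0.657 CPM (log2 fold change 1.54, SE 0.347, adjusted p = 0.0694; 0.049 with the replicate block). In each of these knockouts 1 and 4 were far above knockouts 2 and 3, which in turn were above the controls. Oas2 was at 2.28 to 4.43 CPM against 1.76 to 2.15 CPM. Oas3 had the largest log2 fold change of the set on the fewest reads, with 77, 13, 23 and 40 counts in knockouts 1 to 4 and 13, 12 and 1 in controls 1 to 3, with control 3 and knockout 1 farthest from the others of their groups. Knockout 2 and control 1 had equal counts of Oas3, so its groups were apart only after scaling. The gap, 0.127 CPM in knockout 2 against 0.112 CPM in control 2, was smaller than the 3-count floor. The Oas1 genes are close copies, and reads may be divided between them.

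**Figure D3:**
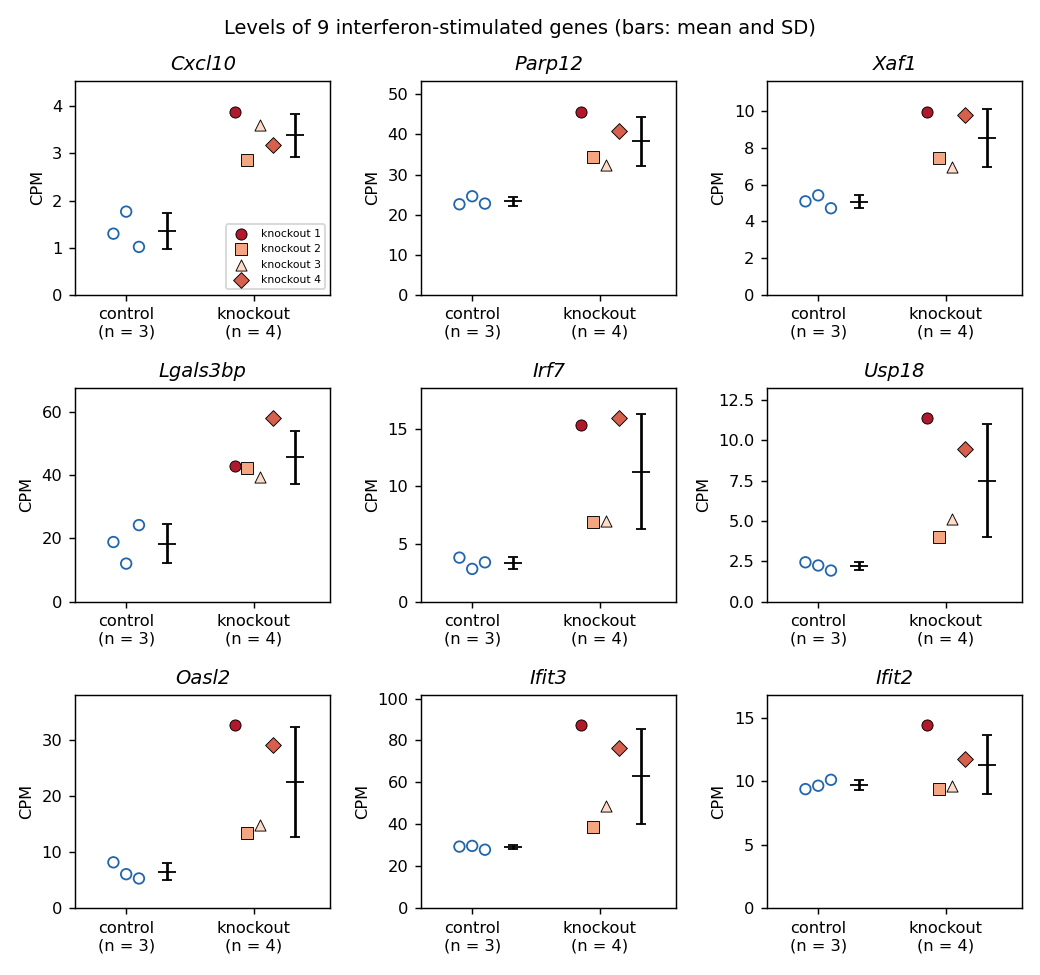
CPM (linear y axes from 0) of Cxcl10, Parp12, Xaf1, Lgals3bp, Irf7, Usp18, Oasl2, Ifit3 and Ifit2 in the 3 control and 4 knockout libraries; bars to the right of each group are the mean and SD. Irf7 is at 15.3 and 15.9 CPM in knockouts 1 and 4, at 6.89 and 7.03 CPM in knockouts 2 and 3 and at no more than 3.82 CPM in the controls, whereas Ifit2 overlaps between groups.

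Of 2 dynamin-like Mx GTPases 1 kept the groups apart, as did 1 of 3 membrane-acting factors, and 0 of either class were called by edgeR (1 and 2 at an unadjusted p below 0.05). Mx2, annotated as a polymorphic pseudogene, was at 6.33, 2.35, 2.55 and 3.10 CPM in the knockouts and at 1.59, 1.12 and 1.46 CPM in the controls. Knockout 1 alone was more than 2-fold above any other library (log2 fold change 1.36, SE 0.366, adjusted p = 0.119, and 0.0346 with the replicate block). Mx1 was at 2.31, 0.705, 0.686 and 1.42 CPM against 0.873, 0.486 and 0.596 CPM, with knockouts 2 and 3 inside the control range (adjusted p = 0.357). Rsad2, the radical-SAM enzyme viperin, was at 7.59, 2.60, 2.99 and 4.32 CPM against 2.02, 2.00 and 1.73 CPM without overlap (log2 fold change 1.19, SE 0.363, adjusted p = 0.162). Bst2, the tetherin that holds budding virions, was at 9.31, 6.90, 9.67 and 11.7 CPM against 4.50, 2.98 and 8.13 CPM. Control 3 was high here, above knockout 2 (log2 fold change 0.85, SE 0.337, adjusted p = 0.271). Ifitm3, which blocks viral entry at endosomes, was at 18.4, 12.7, 13.4 and 20.3 CPM against 14.6, 8.48 and 11.2 CPM, and knockouts 2 and 3 lay below control 1 (adjusted p = 0.34).

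Among the 8 remaining genes Cxcl10 and Xaf1 rose, 6 kept the groups apart and 7 had an unadjusted p below 0.05. Cxcl10, the chemokine that attracts T cells through CXCR3, lies on chromosome 5 at 92346638 to 92348889. Its level was 3.89, 2.86, 3.61 and 3.18 CPM in knockouts 1 to 4 and 1.30, 1.77 and 1.02 CPM in controls 1 to 3 (2.49-fold, log2 fold change 1.32, SE 0.21, adjusted p = 0.0224). The knockouts were close together, and knockout 3 was second highest, unlike the order of most other members. The call was lost without knockout 1 (adjusted p = 0.0716), knockout 4 (0.07), control 1 (0.101) or control 3 (0.0807), and with Xist (0.0647) or the unannotated-read share (0.248) as a covariate. Cxcl10 shares 133 exonic bases with Art3 on the opposite strand, which had a log2 fold change of 0.17.

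Xaf1, a pro-apoptotic factor on chromosome 11 at 72301629 to 72313733, was at 9.98, 7.44, 6.95 and 9.78 CPM in the knockouts and at 5.09, 5.42 and 4.72 CPM in the controls (1.68-fold, log2 fold change 0.75, SE 0.151, adjusted p = 0.0479). Although the groups did not overlap, the call lay just inside the threshold. It was lost without knockout 1 (0.121), knockout 2 (0.0717), knockout 4 (0.123), control 1 (0.158), control 2 (0.0593) or control 3 (0.198), in limma-voom (0.0659) and with Xist (0.135) or the unannotated-read share (0.365) as a covariate. Lgals3bp, a secreted galectin-binding glycoprotein, was at 43.0, 42.2, 39.6 and 58.1 CPM against 18.9, 12.04 and 24.2 CPM. All knockouts were well above control 3, the highest control, yet the adjusted p was 0.0529 (log2 fold change 1.31, SE 0.25), and DESeq2 (8.18e-08) and limma-voom called it. Ifi27, a mitochondrial and nuclear-envelope protein, was at 37.7 to 60.9 CPM against 20.9 to 34.7 CPM, and was the only member in which knockout 1 was the lowest knockout. Rtp4 (log2 fold change 0.99), Ifi44 (1.34), Ifi35 (0.59) and Samd9l (0.33) were not called (adjusted p = 0.156, 0.152, 0.203 and 0.322), and Ifi35 and Samd9l overlapped between the groups.

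The 4 knockouts stood in a repeated order. Relative to the control mean, the median difference in log2 CPM over the 37 genes was 1.28 in knockout 1, 0.40 in knockout 2, 0.52 in knockout 3 and 1.17 in knockout 4, and 0.08, -0.01 and -0.06 in controls 1 to 3. Over all tested genes the same medians were between -0.00418 and 0.00287. Knockout 1 was the highest knockout for 30 members and knockout 4 for 7, while knockouts 2 and 3 were highest for 0. Over all tested genes the shares were 22.4%, 25.9%, 18.6% and 33.1% for knockouts 1, 4, 2 and 3. Knockout 2 was lowest for 26 members, knockout 3 for 10, knockout 1 for 1 and knockout 4 for 0, against 18.9%, 34.6%, 20.7% and 25.8% of tested genes. The top pair was knockouts 1 and 4 for 34 of 37 members, against 19.8% of tested genes. The ratio of the highest to the lowest knockout ranged from 1.27 in Stat2 to 5.95 in Oas3, with a median of 1.95, against 1.19 over all tested genes. All 37 members were above every control in knockouts 1 and 4 (26.8% and 25.9% of tested genes), 34 in knockout 3 (28.3%) and 27 in knockout 2 (22.9%). This order is a description over genes that share 4 libraries, and no test was made of it.

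**Figure D4:**
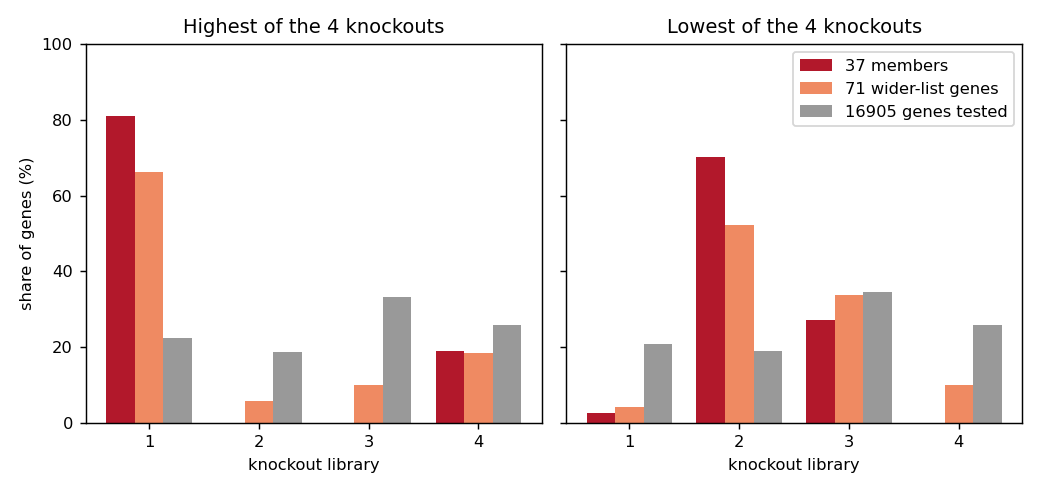
Share of genes (y axis, percent) for which each of knockout libraries 1 to 4 (x axis) is the highest (left) or the lowest (right) of the 4, for the 37 members, the 71 tested genes of the wider list and all 16905 genes tested. Knockout 1 is highest for 30 members and knockout 2 lowest for 26.

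Cic was nearly equal in knockouts 1 to 4, at 147, 146, 144 and 147 CPM, too close for a ranking to be read. Etv4, an ETS factor repressed by CIC, was at 139, 147, 127 and 155 CPM, highest in knockout 4 and then knockout 2. The part of either gene in the order of the knockouts was not tested. Of the high pair, knockout 1 was high in Xist and knockout 4 in Ddx3y. Knockout 2 was also high in Xist and knockout 3 in Ddx3y. The part of these transcripts in the order was not tested. The sum of the 6 endothelial markers was also highest in knockouts 1 and 4, at 177, 140, 153 and 175 CPM in knockouts 1 to 4. Controls summed to 132 to 148 CPM, with 0 of 6 called by edgeR. Knockouts 1 and 4 were also the top pair for Cldn5, Pecam1, Cdh5, Flt1 and Ly6c1 singly, but not for Slco1a4. They were so for 34 of 37 members and 19.8% of tested genes. The lowest was knockout 3 for Cldn5, Pecam1 and Flt1, as for 10 members, and knockout 2 for the other endothelial markers. Slco1a4, the most abundant, was at 61.7, 45.1, 60.4 and 59.2 CPM and alone had an unadjusted p below 0.05 in edgeR (0.0108). The part of endothelial markers in the result was not tested. Microglia markers (12 genes, 0 called) summed to 252, 288, 204 and 264 CPM in knockouts 1 to 4 and 237 to 252 CPM in the controls, with knockout 2 the highest, and with their mean log2 level as a covariate 3 members were called (1.63% of all genes). Border macrophage and monocyte markers (8 genes) summed to 9.27, 7.67, 7.66 and 9.77 CPM in knockouts 1 to 4 against 5.73 to 10.6 CPM in controls. Knockouts 1 and 4 were the top pair there too. The same held for Purkinje cell markers, at 4581, 4222, 2948 and 4763 CPM against 3358 to 4056 CPM. It also held for granule neuron markers, at 2475, 2424, 2164 and 2518 CPM against 2397.5 to 2638 CPM. Apart from these and the endothelial markers, the sums had other top pairs. T and NK cell markers were scarce: 7 genes summed to 1.31, 1.31, 0.730 and 0.903 CPM in knockouts 1 to 4 against 0.587 to 0.822 CPM in controls. The 6 of them tested had a median log2 fold change of 0.51, with 0 called by edgeR and 2 at an unadjusted p below 0.05. Cd8a, a co-receptor of cytotoxic T cells, had 36, 25, 22 and 27 counts in knockouts 1 to 4 and 13, 14 and 16 in the controls, without overlap (log2 fold change 1.05, SE 0.307, adjusted p = 0.139). Cd3g, a T cell receptor subunit, had 21, 23, 14 and 9 counts against 4, 11 and 5, with overlap (log2 fold change 1.42, SE 0.528, adjusted p = 0.236). Cd3e, of the same complex, had 13, 10, 9 and 3 counts against 10, 7 and 14 (log2 fold change -0.11, SE 0.501). Cd3d (0.45, SE 0.571), Cd4 (0.39, SE 0.367) and Nkg7 (0.58, SE 0.457) also overlapped between the groups. B cell markers (4 genes) summed to 0.480 to 0.950 against 0.346 to 1.08 CPM, and neutrophil markers (4 genes) to 0.362 to 0.884 against 0.411 to 2.66 CPM. Plasmacytoid dendritic cell markers, which include the member Bst2 and the neuronally expressed Tcf4, summed to 312 to 326 against 305 to 336 CPM. Astrocyte and Bergmann glia markers (5 genes, 2 called lower) summed to 1859 to 2132 CPM against 2518 to 2580 CPM, reactive astrocyte markers (5 genes, 1 called lower) to 288 to 380 against 397 to 429 CPM, and oligodendrocyte markers (5 genes) to 3338 to 5390 against 4468 to 5708 CPM. Gfap, in both astrocyte lists, had means of 116 against 206 CPM. In the reactive list Gfap and Serpina3n were lower, while Vim (0.05), Lcn2 (0.92) and Steap4 (0.35) had positive log2 fold changes. No listed marker found in the files was at 0 in all libraries. The part of these cell types in the result was not tested. In bulk tissue, more cells of a type and more RNA per cell cannot be told apart.

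Of 40 tested genes of the pathway list (receptors, kinases and factors, inducers and inhibitors) 28 had a positive log2 fold change, with a median of 0.06. At an unadjusted p below 0.05, 5 of the 40 were higher and 1 lower, against 8.06% and 8.16% of all genes tested, and 1 was called higher, against 1.25%. These counts are near the shares over all genes. Of 21 interferon genes 13 were at 0 in all 7 libraries, none passed the filter on low counts, and the highest count for any of them in any library was 7, for Ifnz in control 1. Together the 21 had 19 counts over the 4 knockouts and 32 over the 3 controls, so interferon transcripts were not detectable above a few reads at this depth, which does not show that they were absent. The 6 receptor chains had a median log2 fold change of 0.04 with 0 called by edgeR and 0 at an unadjusted p below 0.05. The receptor gene Ifnar1 ranged from 53.1 to 58.6 CPM in knockouts and from 51.6 to 56.3 CPM in controls (log2 fold change 0.04, SE 0.0542), and Ifnar2 at 22.4 to 23.2 against 21.8 to 25.2 CPM (-0.02, SE 0.0617). The kinases Jak1 (0.01, SE 0.0431) and Tyk2 (0.08, SE 0.11) and the factor Irf3 (0.01, SE 0.0718) also differed by less than their errors.

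The pathway gene that rose was Samhd1, a nucleotide triphosphatase that limits DNA sensing and restricts retroviruses. It was at 37.9, 36.0, 32.7 and 36.3 CPM in the knockouts and at 25.3, 28.7 and 24.9 CPM in controls (log2 fold change 0.44, SE 0.0727, adjusted p = 0.0239). Its knockouts were nearly equal, unlike those of most members. The call was lost without knockout 1 (0.0759), knockout 2 (0.0694), knockout 4 (0.0835), control 1 (0.101) or control 3 (0.114), and with Xist (0.0876) or the unannotated-read share (0.285) as a covariate. Of 16 genes listed for sensing, induction and their limits it was the only one with an unadjusted p below 0.05. The cytosolic DNA sensor gene Mb21d1 (cGAS) was at 0.886 to 1.22 against 0.710 to 0.914 CPM, and its adaptor Tmem173 (STING) at 2.48 to 3.21 against 2.63 to 3.18 CPM (log2 fold changes 0.28, SE 0.189, and 0.02, SE 0.137). Among inhibitors, Socs3 (0.52, adjusted p = 0.276), Ptpn6 (0.33, 0.265) and Ptpn2 (0.19, 0.266) had unadjusted p-values below 0.05 and were not called, and Socs1 had a log2 fold change of 0.26 (SE 0.16). Irf2bp2, a corepressor partner of IRF2, had the only negative log2 fold change of the list with an unadjusted p below 0.05 (-0.22, adjusted p = 0.305).

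**Figure D5:**
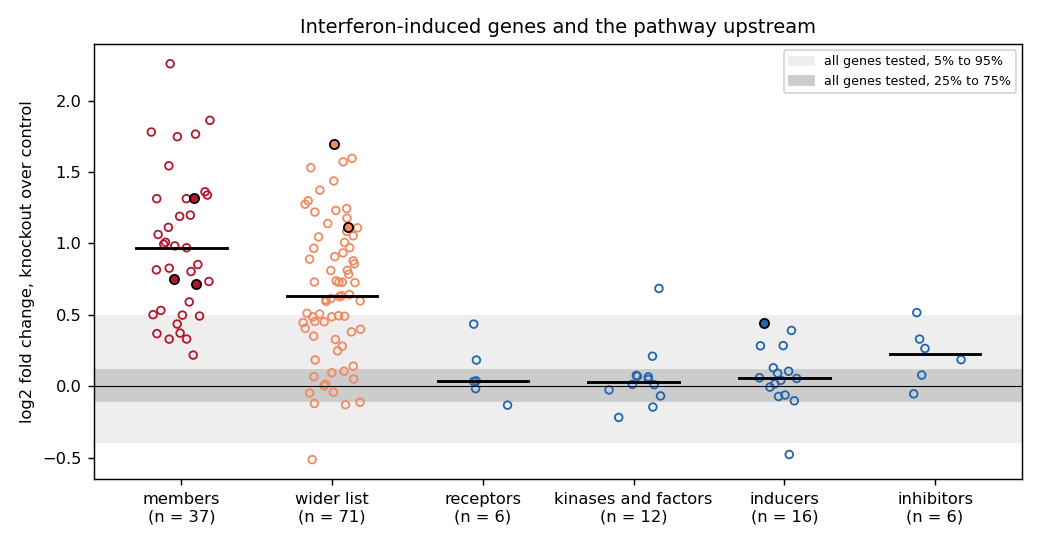
Log2 fold change (y axis, knockout over control) of each tested gene of the members, the wider list and 4 classes of the pathway list; filled points are called at an adjusted p below 0.05, black lines are medians, and grey bands hold the stated share of all genes tested. The medians are 0.97 for members, 0.63 for the wider list and 0.04 for receptors.

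A wider list of interferon-induced genes that are not in the set had differences mostly in the same direction. Of 71 tested, 65 had a positive log2 fold change (48.8% of all genes tested did), and the median was 0.63. At an unadjusted p below 0.05, 46 were higher (8.06% of all genes) and 0 lower. In edgeR 2 of the 71 were called, not far from the 1.25% of all genes. The 6 negative genes were Ifitm1 (log2 fold change -0.51, SE 0.286), Ifit1bl1 (-0.13), Ccl2 (-0.12), Ifitm2 (-0.11), Shisa5 (-0.05) and Nmi (-0.04). Ddx60, a helicase-like cofactor of RIG-I, was at 6.82, 2.72, 3.88 and 5.42 CPM against 1.53, 1.53 and 1.29 CPM (log2 fold change 1.70, SE 0.302, adjusted p = 0.0341). Gbp4, a guanylate-binding protein, was at 7.34, 4.82, 3.82 and 5.08 CPM against 2.12, 2.75 and 2.44 CPM (log2 fold change 1.11, SE 0.22, adjusted p = 0.0451). Neither overlapped between groups. The call of Ddx60 was lost without knockout 1 (0.0651), knockout 4 (0.103), control 1 (0.139), control 2 (0.0629), control 3 (0.153) or both libraries numbered 3 (0.102), in limma-voom (0.0657) and with Xist (0.103) or the unannotated-read share (0.314) as a covariate. That of Gbp4 was kept only without knockout 3 among single omissions, with an adjusted p of up to 0.179 without control 1, and was also lost with the replicate block (0.0601), in limma-voom (0.0671) and with Xist (0.12) or the unannotated-read share (0.354) as a covariate.

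Families more often tied to interferon gamma were part of this. All 10 guanylate-binding protein genes were positive on the log2 scale (median 0.84), and 8 had an unadjusted p below 0.05, against 8.06% of all genes. Gbp6 was at 30.3, 13.9, 16.0 and 25.2 CPM against 9.58, 7.97 and 8.45 CPM (adjusted p = 0.0712). All 7 immunity-related GTPase genes were positive too, with a median of 0.86, among them Irgm2 at 7.24 to 12.8 CPM against 4.93 to 5.36 CPM (adjusted p = 0.0683). Genes of the HIN-200 DNA-binding family (4 tested, median 0.78) and the Schlafen family (4 tested, median 0.75) had only positive values. Of 4 chemokines, Ccl12 had a log2 fold change of 1.24 at 0.646 to 1.40 CPM against 0.368 to 0.522 CPM (adjusted p = 0.0703) and Cxcl9, on 4 to 20 counts, one of 1.44 (SE 0.415, adjusted p = 0.136). Ccl5 (0.45, SE 0.39) and Ccl2 (-0.12, SE 0.342) overlapped between the groups. Many of these genes have near-identical copies, and counts of a single copy are uncertain. Knockouts 1 and 4 were the top pair for 46 of the 71.

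Compared per length of merged exons (GENCODE M21), the most abundant members in the controls were Stat2 at 20.2 ± 2.97 RPKM (CPM per kilobase, SD, n = 3), Ifi27 at 18.7 ± 4.76, Ifitm3 at 16.9 ± 4.55 and Ifit3 at 16.7 ± 0.554, where neighbours in this order differ by less than the larger of their SDs. Oas3 was the least abundant at 0.0107 ± 0.00821 RPKM. In the knockouts the same 4 were at 36.0 ± 13.02 (Ifit3), 32.6 ± 6.73 (Ifi27), 26.1 ± 2.71 (Stat2) and 23.9 ± 5.50 RPKM (Ifitm3, SD, n = 4). Ifit3 was above Ifi27 in knockouts 1 and 4 and below it in knockouts 2 (22.3 against 33.3 RPKM) and 3 (28.0 against 29.8 RPKM), so their order is not fixed.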

How the data were processed

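Cerebellar RNA in 4 knockout and 3 control libraries was sequenced after amplification of cDNA primed from poly(A) tails and at random, per the labels' protocols. Each library has 1 deposited file of raw counts for gene symbols, not normalized by the authors. Per the submitters' processing notes, the tools were STAR 2.5.3a, HTSeq and DESeq2 and the build mm10. Annotation and strand setting: not given in the sources used here, so strand was treated as unknown. The 5 HTSeq summary rows per file stayed out of library sizes and tests (reads outside annotated genes 16.0% to 19.0% of entries, ambiguous reads 1.27% to 1.37%, reads without a unique alignment 12.0% to 13.7%).

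Counts were filtered with filterByExpr, leaving 16905 genes and all 37 members, scaled by TMM in edgeR 4.0.16 (R 4.3.3) and compared with its robust quasi-likelihood F test, genotype as the only term, with Benjamini-Hochberg adjustment over all genes tested. Adjusted p-values are from this test unless another is named, and calls were made below 0.05. Each SE is the size of the log2 fold change over the root of F. DESeq2 1.42.0 and limma-voom (limma 3.58.1) were alternatives. CPM are TMM-scaled. Same-group pairs varied 18.5 to 157 times more than counting noise, so each library counted as 1 replicate. Reads were amplified without molecular identifiers and are not independent.

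The members, the wider list, the pathway list (with 2 gene names each given in an older and a newer form), the marker lists and the motifs were chosen with earlier results of these data known, from general knowledge. Genes given library by library are the 3 of smallest unadjusted p in each functional class, and from the other lists the called genes and up to 6 of smallest p. Others are named as parts of the pathway or to show a range. One gene of the pathway list that this rule would name is not reported here.

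Replicate numbers 1 to 3 occur in both groups, and the number 4 in the knockouts only, so knockout 4 adds nothing to a fold change fitted with the block. Across genes, the correlation between same-numbered libraries, after subtracting group means, was 0.145, 0.288 and 0.713. All exceed 0.1, which was taken as pairing. Libraries of unlike number also reached 0.319, and the labels do not say what a number marks, so the test without the block is the main one.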

Additional observations from a re-analysis of the deposited data

How the results depend on the processing

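Over 18 alternatives the 37 members kept a positive log2 fold change wherever they were tested (663 of 663 values; 3 members were below the filter of 1 CPM in 3 libraries), and the cause of changed calls was not tested. Against 3 members called higher, DESeq2 called 23 and a filter of 1 CPM in 3 libraries 5, and omitting single libraries gave 0 to 8. With the replicate block 10 were called. EdgeR with a covariate, either the unannotated-read share or Xist, called 0 (22 and 27 at an unadjusted p below 0.05). No alternative called a member lower. The share of all genes called higher moved with the setting too, for these and the following counts. It was 1.25% in the main fit, 4.19% in DESeq2, 1.14% in limma-voom and 1.83% with the replicate block. The filter of 1 CPM gave 1.67%, and omitting both libraries numbered 3 gave 1.52%. Single omissions gave 0.386% to 2.94%, the unannotated-read share 0.272% and Xist 0.432%. Against 2 genes of the wider list called higher, DESeq2 called 24, limma-voom 0 (40 at an unadjusted p below 0.05), the replicate block 5 and the fit without both libraries numbered 3 called 1; single omissions gave 0 to 13, and either covariate gave 0 (30 and 36 at an unadjusted p below 0.05). Against 1 pathway gene, DESeq2 called 2, single omissions gave 0 to 2 and either covariate gave 0 (3 and 3 at an unadjusted p below 0.05). The replicate block changed the calls of Eif2ak2, Irf7, Mx2, Oas1a, Oasl2, Rtp4 and Usp18 among members and of no other member. The median log2 fold change of the members ranged from 0.76 without knockout 1 to 1.14 without knockout 2. Scaling by DESeq2 size factors or by library size left 3 members called in each case. Depth limits the interferon genes themselves, with at most 7 counts, and Oas3 and Zbp1, both under 2 CPM.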
